A study of Oncorhynchus mykiss with 60 samples.

Results

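The genes described here carry names of enzyme families that write and erase chemical marks on histones and on DNA. They were studied in the rainbow trout (Oncorhynchus mykiss) egg and early embryo. A gene was a member when its own identifier, or the zebrafish symbol paired with it in the deposited ortholog table, began with kmt, kdm, kat or hdac followed by a digit, with setd, ehmt, ezh or dnmt, with tet1, tet2 or tet3, or with ep300 or crebbp. Zebrafish symbols shared by 9 or more trout identifiers were not used. This gave 113 of the 23471 genes in the count table, under 68 symbols. Enzyme classes were assigned by name, and the activity of the encoded proteins was not tested. For 7 members, setd4 and setd6 among them, no histone or DNA mark was assigned. Trout descends from a fish whose genome doubled, and 38 of the symbols had 2 or more copies, which made up 83 members. Copies are written with the symbol followed by the trout identifier, and a symbol alone is an identifier that the count table gives in that form.

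Histone methyltransferases and demethylases set and remove methyl groups on lysines such as H3K4, H3K9, H3K27, H3K36 and H4K20, acetyltransferases and deacetylases do the same with acetyl groups, and DNA methyltransferases and TET enzymes govern methylation of cytosine. In fish the egg is loaded by the mother with RNA for many such enzymes, and the embryo's own genome is switched on during the blastula stages. DNMT1 copies existing DNA methylation after replication, DNMT3 enzymes place new methylation, and TET enzymes oxidise methylcytosine.

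Whole eggs and embryos were cut into 5 slices from the animal pole (section A), where the embryo's cells form, to the vegetal pole (section E), which is yolk-rich, and RNA was sequenced from each slice. The samples were eggs at 0 hours post fertilization (hpf), for which the labels name both non-fertilized and freshly fertilized eggs, embryos at 1 hpf, named as both 1-cell and early cleavage, early blastulae of 32 to 64 cells at 1 day post fertilization (dpf), and mid-blastulae of about 1000 cells at 3 dpf. No treatment or genotype is given, and all groups are untreated material of the same species. Each stage had 3 biological replicates of 5 sections, except 1 hpf, for which replicates 1 and 3 were used and replicate 2 was not analysed here, giving 55 libraries.

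Total counts per library ran from 1.09 to 14.46 M (mega-counts) with a median of 4.6 M, and the 3 dpf libraries had 1.09 to 6.81 M. Levels are given as CPM, counts brought to a common library total and scaled by the trimmed mean of M-values. Each library was made from an equal mass of RNA, so a level is a share of a section's RNA and not an amount, and fewer cells of a type cannot be told apart from less RNA per cell. All 50 pairs of replicates of a section differed by more than sampling noise, the chi-square statistic over its degrees of freedom lying between 2.63 and 19.43. The replicate 2 libraries of 0 hpf stood apart, with a mean correlation to the other replicates of 0.928 to 0.942 on the log scale, as did the replicate 3 libraries of 1 dpf (0.923 to 0.956) and 3 dpf (0.924 to 0.957). The 2 replicates of 1 hpf correlated no better with each other, at 0.94 to 0.949. Sections kept their labels: the summed level of 9 vegetal marker genes was 131 to 333 CPM in section A and 7550 to 16000 CPM in section E. Summed CPM of 10 genes first transcribed by the embryo was 0.43 to 1.34 in section A at 0 hpf, 17.6, 11.3 and 1.35 in replicates 1, 2 and 3 at 1 dpf and 1150 to 1340 at 3 dpf, so replicate 3 at 1 dpf was near the egg's range while the other 2 were above it. Of other cell types, the liver marker tfa was at 3.27 to 27.8 CPM and the sperm marker spata17 at 0.868 to 7.71 CPM, while no gene of the follicle cell and blood lists was matched.

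Most histone and DNA modifying enzyme genes lay toward the animal pole in the egg. At 0 hpf, 74 of the 113 members were higher in section A than in section E and 18 were higher in E, at an adjusted p under 0.05 in edgeR's quasi-likelihood test with replicate as a block. Among all 21799 genes tested the shares were 32.0% in each direction, so the members' share toward A was above the background and their share toward E below it. The median log2 fold change of A over E was 0.88 for the members and -0.01 for all genes. A log2 fold change of at least 1 toward A was reached by 52 members (46.0%), against 17.5% of all genes, and toward E by 5 members. The animal side held most members at each later stage. At 1 hpf 70 were higher in A and 14 in E, beside 27.6% and 24.9% of all genes, at 1 dpf 70 and 20 (32.9% and 30.5%), and at 3 dpf 75 and 20 (38.1% and 34.3%). The median of the members was 0.96, 0.81 and 1.51 at those stages. At 3 dpf it was 1.14 without replicate 3, 1.58 without replicate 1 and 1.59 without replicate 2. Without 1 hpf replicate 3, all stages were fitted together, and the lone remaining replicate was assumed to vary like the other samples. The 1 hpf median was then 0.66 for the members and -0.01 for all genes.

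Across the stages, 54 members were higher in A at all 4 and 10 were higher in E at all 4, beside 17.7% and 18.0% of the 20657 genes tested at every stage. Another 8 were called toward opposite poles at different stages, beside 7.60% of those genes, and 5 were called at none, beside 10.3%: ehmt1a, ehmt2 LOC110487637, both kdm8 copies and setd9, of which all but ehmt1a are named here after their values were seen. The slice with the highest mean level was A for 65 members at 0 hpf and for 76 at 3 dpf, while E was highest for 24 and then 10. Of all genes tested A was highest for 30.7% and then 42.7%, and E for 40.3% and then 19.4%, so the numbers moved the same way as in the background. A joint test over the 5 sections found 85 members unevenly spread at 0 hpf (56.1% of all genes), 78 at 1 hpf (46.1%), 82 at 1 dpf (62.4%) and 93 at 3 dpf (69.8%).

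**Figure D1:**
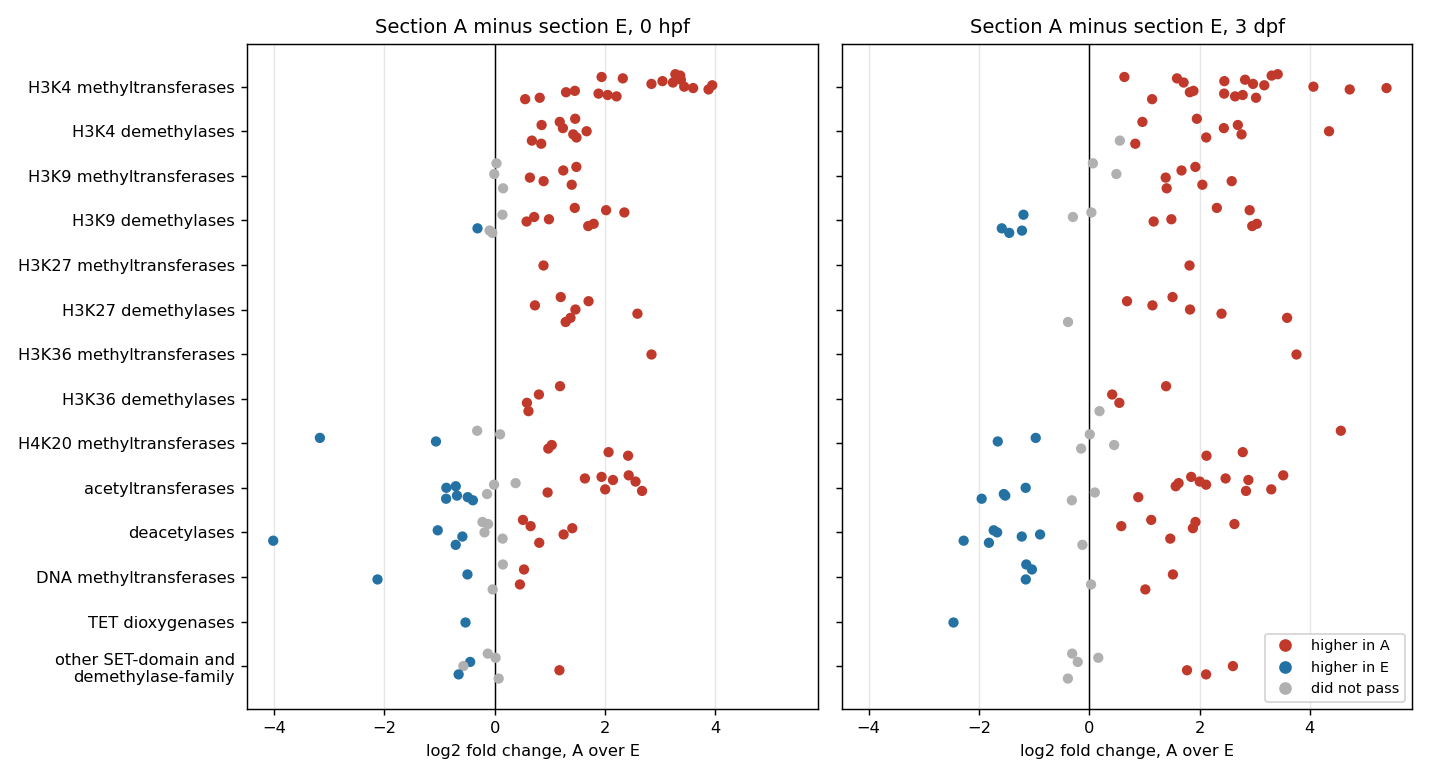
Log2 fold change of section A over section E at 0 hpf (left) and 3 dpf (right) for each of the 113 members, in rows by enzyme class; each point is 1 gene, coloured by whether it was higher in A, higher in E or did not pass. The 19 H3K4 methyltransferase genes lie to the right of 0 at both stages, while deacetylases and DNA methyltransferases fall on both sides.

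The genes classed by name as H3K4 methyltransferases, a mark that sits at promoters and enhancers, lay toward the animal pole in full. All 19 members, under 10 symbols, were higher in A at 0 hpf, with a median log2 fold change of 2.84 and a range of 0.55 to 3.94, and all 19 again at 3 dpf, with a median of 2.78 and a range of 0.64 to 5.39. At 1 hpf 18 of them passed and at 1 dpf 17. Without 1 hpf replicate 3, the log2 fold change at 1 hpf went from 2.24 to 0.83 for kmt2ca LOC110490933 and from 2.44 to 1.18 for kmt2ca LOC110535292. It went from 1.31 to 0.6 for kmt2e, from 2.13 to 1.43 for setd1ba LOC110523727 and from 3.23 to 2.63 for kmt2a. That of kmt2d LOC110532701 went the other way, from 3.55 to 4.36. kmt2cb LOC110508653, which encodes a large enhancer methyltransferase, read 187.1, 154.2 and 320.0 CPM in section A of replicates 1 to 3 at 0 hpf and 19.86, 14.16 and 9.098 CPM in section E. The groups did not overlap, though A above E in every replicate was part of the rule for naming genes. The log2 fold change was 3.94 ± 0.349 (SE, adjusted p = 5.87e-08 in edgeR).

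kmt2d, another enhancer methyltransferase, has 2 trout copies with much the same profile. kmt2d LOC110532701 read 230.9, 236.8 and 336.4 CPM in A and 29.8, 15.51 and 12.25 CPM in E at 0 hpf, a log2 fold change of 3.88 ± 0.269 (SE, adjusted p = 3.58e-09 in edgeR). The copy named kmt2d had a log2 fold change of 3.60 ± 0.295 at 0 hpf. At 3 dpf it read 390.5, 492.5 and 570.9 CPM in A and 8.381, 18.9 and 5.585 CPM in E, and its log2 fold change of 5.39 ± 0.435 (SE) was the highest of the 113 members at that stage and was 6.11 without replicate 2. kmt2bb LOC110510370, a promoter methyltransferase, had a log2 fold change of 3.38 ± 0.212 at 0 hpf, and kmt2a LOC110503544, of the same subfamily, had 3.36 ± 0.342, which was 3.96 without replicate 1.

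setd2, the 1 member that trimethylates H3K36 along transcribed gene bodies, followed the same gradient. It read 547.8, 481.0 and 665.0 CPM in section A at 0 hpf and 99.92, 86.07 and 53.66 CPM in section E, a log2 fold change of 2.83 ± 0.21 (SE, adjusted p = 8.14e-09 in edgeR). The mean fell section by section, from 564.6 CPM in A to 446.9 in B, 251.7 in C, 156.6 in D and 79.88 in E. By 3 dpf section A had 1263, 1233 and 1291 CPM and section B a mean of 392.2 CPM, while section E had 108.1, 101.9 and 72.1 CPM. The increase in section A from 0 hpf to 3 dpf was 1.10 ± 0.177 (log2, SE, adjusted p = 0.000338 in edgeR), and the 3 replicates of each stage did not overlap.

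The enzymes that remove H3K4 methylation lay on the same side as those that place it. All 9 H3K4 demethylase members were higher in A at 0 hpf (median log2 fold change 1.24) and 8 of 9 at 3 dpf (median 2.12). kdm5c LOC110492776 was the exception at 3 dpf, with a log2 fold change of 0.56 ± 0.287 (SE, adjusted p = 0.0923 in edgeR), and it is named after its values were seen. Its copy kdm5c LOC110532487 had 0.83 ± 0.338 and passed, but its call was lost without replicate 1 (adjusted p = 0.0645 in edgeR), without replicate 3, where the fold change was 0.09, without the replicate block and without a scaling factor. kdm5a LOC110490148 averaged 180.9 ± 15.79 CPM in A and 81.79 ± 16.64 CPM in E at 0 hpf (SD, n = 3), a log2 fold change of 1.18. kdm5ba LOC110528247 was low in the egg, at 29.24, 39.91 and 28.01 CPM in A and 10.83, 11.01 and 8.912 CPM in E. At 3 dpf it read 235.5, 184.2 and 231.0 CPM in A and 11.03, 14.97 and 4.062 CPM in E. Its log2 fold change of A over E went from 1.67 to 4.35, and the change of 2.68 ± 0.37 (SE) passed the test.

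ezh2, the 1 H3K27 methyltransferase member and the catalytic subunit of Polycomb repressive complex 2, was higher in A at every stage. It read 160.3, 182.6 and 177.9 CPM in A and 95.4, 97.08 and 93.95 CPM in E at 0 hpf, a log2 fold change of 0.88 ± 0.113 (SE, adjusted p = 4.32e-06 in edgeR). At 3 dpf section A had 378.1, 356.5 and 324.8 CPM and section E 93.08, 110.8 and 95.96 CPM, a log2 fold change of 1.81. Section E thus stayed at a like level while all 3 section A libraries of 3 dpf were above the 3 of 0 hpf. The H3K27 demethylases (kdm6 genes) were higher in A for all 7 members at 0 hpf, with log2 fold changes of 0.73 to 2.59, and for 6 of 7 at 3 dpf.

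H3K9 methyltransferases (ehmt and setdb1 genes) had 5 of 8 members higher in A at 0 hpf and 6 of 8 at 3 dpf, with none higher in E, and their median log2 fold change was 0.76 and then 1.54. ehmt1b LOC110523494 averaged 231.7 ± 22.08 CPM in A and 99.88 ± 16.45 CPM in E at 0 hpf (SD, n = 3), while ehmt1a had 207.8 ± 13.96 and 205.6 ± 2.545 CPM and did not pass. H3K9 demethylases were mixed: 8 of 12 were higher in A and 1, kdm7aa/kdm7ab LOC110490481, in E at 0 hpf, and 6 and 4 at 3 dpf. The shares of all genes were 32.0% each way at 0 hpf, and 38.1% toward A and 34.3% toward E at 3 dpf. The kdm7aa/kdm7ab call was lost without replicate 1 or 3 (adjusted p = 0.201 and 0.31 in edgeR), without the block (0.113) and without a scaling factor (0.439). kdm3b LOC110488590 averaged 443.9 ± 30.86 CPM in A and 165.7 ± 37.76 CPM in E at 0 hpf (SD, n = 3), and at 3 dpf 632.5 ± 70.89 and 129.7 ± 43.25 CPM. All 4 H3K36 demethylase members (kdm2 genes) were higher in A at 0 hpf and 3 of 4 at 3 dpf.

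The H4K20 methyltransferase members had calls toward each pole. KMT5A adds the first methyl group, and KMT5B and KMT5C the further ones. At 0 hpf 4 of the 8 members were higher in A and 2 in E, beside 32.0% of all genes in each direction. Both kmt5c copies were among the former, with log2 fold changes of 2.06 and 2.42. The gene named kmt5b read 23.22, 16.48 and 14.58 CPM in A and 204.1, 106.1 and 182.1 CPM in E, a log2 fold change of -3.17 ± 0.163 (SE, adjusted p = 2.17e-10 in edgeR). Its copy kmt5b LOC110520608 also passed toward E (adjusted p = 2.49e-07 in edgeR), with means of 40.33 CPM in A and 85.31 CPM in E. The other 2 copies, kmt5b LOC110526843 and kmt5b LOC110526840, were higher in A, with log2 fold changes of 0.97 and 1.03. Copies of 1 gene therefore stood at opposite poles of the egg, with no overlap between A and E in any of the 4.

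**Figure D2:**
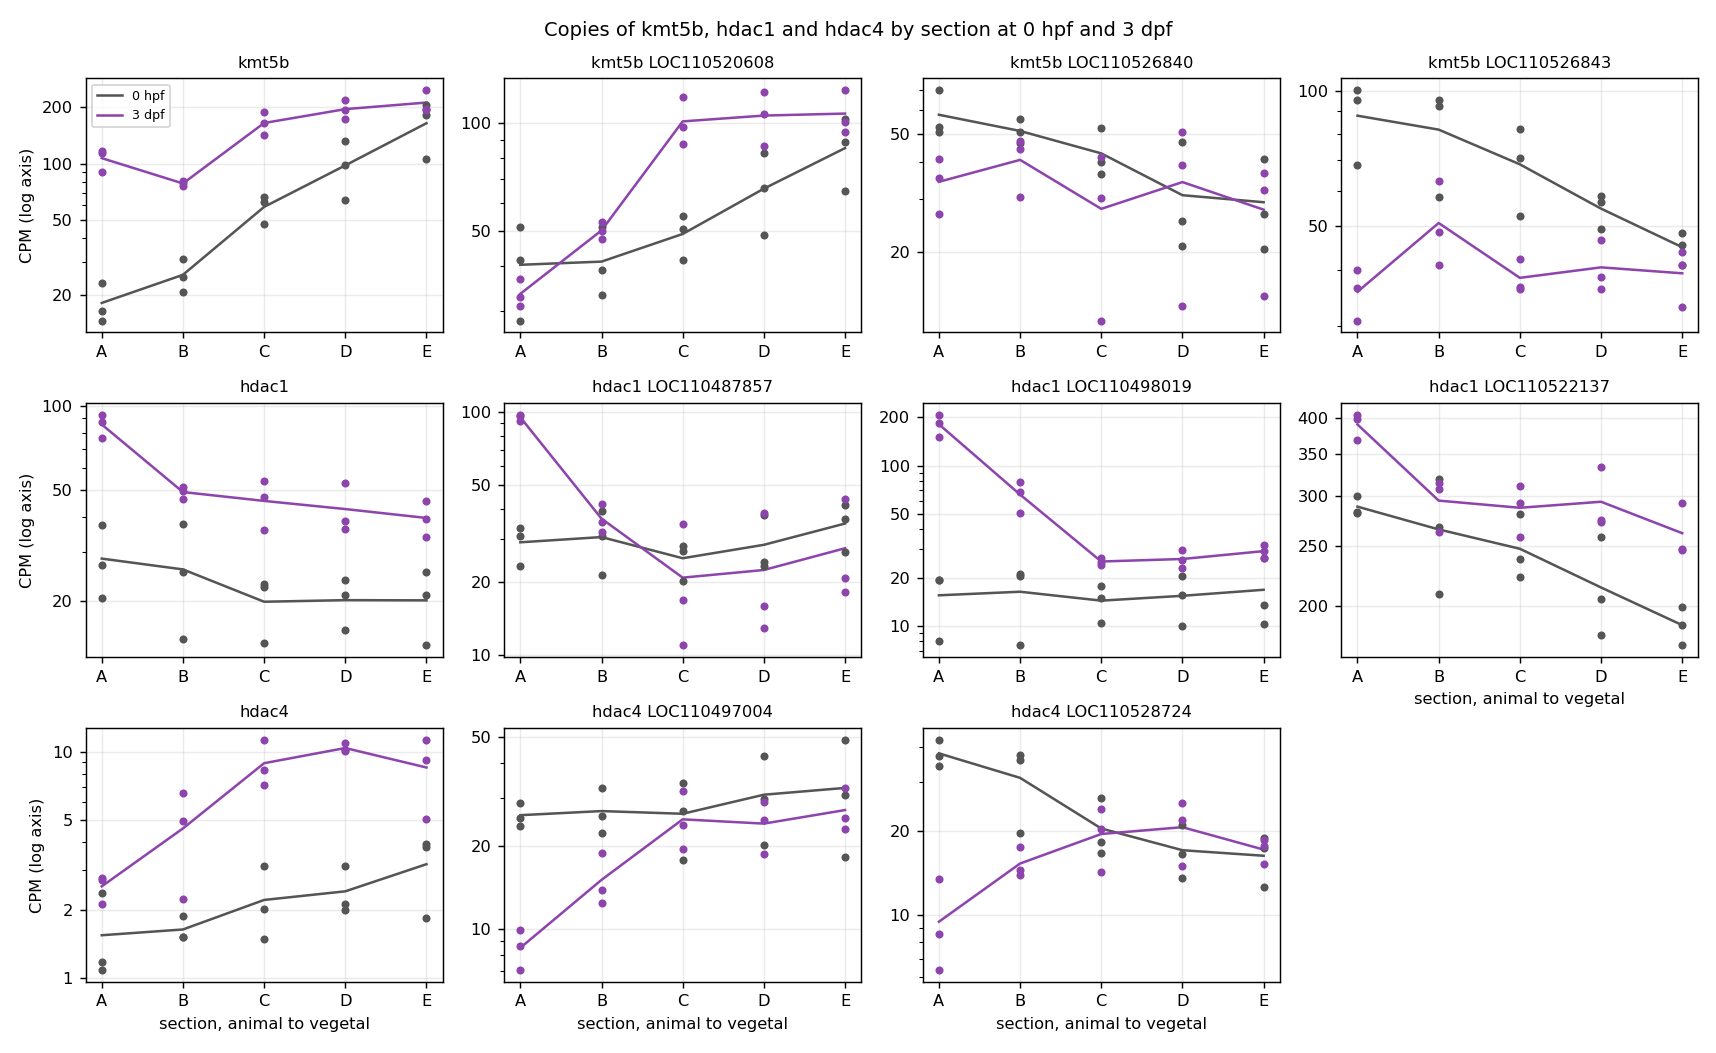
CPM (log axis) by section from A (animal) to E (vegetal) for the copies of kmt5b, hdac1 and hdac4 at 0 hpf (grey) and 3 dpf (purple); points are replicates and lines join means. The kmt5b copies rise or fall toward E at 0 hpf depending on the copy, and hdac1 LOC110498019 is level across sections at 0 hpf and highest in A at 3 dpf.

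Acetyltransferase calls also fell on both sides. Of the 17 members, 8 were higher in A and 6 in E at 0 hpf, and 11 and 4 at 3 dpf. Among all genes 32.0% were called in each direction at 0 hpf, and 38.1% toward A and 34.3% toward E at 3 dpf. The p300 and CBP coactivator genes (ep300 and crebbp), which acetylate H3K27 at enhancers, were higher in A for 5 of 6 members at 0 hpf. Their log2 fold changes were 2.55 for ep300b LOC110486410, 2.43 for crebbpa LOC110487234, 2.14 for ep300a LOC110502858, 1.94 for crebbpb LOC110485268 and 1.64 for ep300a LOC110498762. ep300b LOC110538375 was the exception, with 72.89, 133.2 and 90.37 CPM in A and 117.4, 56.18 and 57.37 CPM in E, which overlapped. At 3 dpf all 6 were higher in A, and crebbpa LOC110487234 had the highest log2 fold change of them, 3.52, which was 4.63 without replicate 2. Also higher in A at 0 hpf were kat6a LOC110525858 (2.67), kat6a (2.00) and kat6b (0.96), while kat6b LOC110499546 did not pass. Higher in E were kat5a LOC110534008 (-0.88), kat2a LOC110538187 (-0.71) and kat8 (-0.40). The 3 copies of kat7b, which encodes an acetyltransferase of histone H3 and H4, were all higher in E at 0 hpf, and kat7b LOC110538409 averaged 71.79 ± 11.73 CPM in A and 134.2 ± 22.28 CPM in E (SD, n = 3).

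Deacetylases were called toward both poles, with 5 of 13 higher in A and 4 in E at 0 hpf and 6 each at 3 dpf. At 0 hpf these shares were near the 32.0% of all genes in each direction. At 3 dpf the shares of all genes were 38.1% toward A and 34.3% toward E. hdac6, a mainly cytoplasmic deacetylase that acts on tubulin, was the member with the most negative log2 fold change of the 113 in the egg. It read 4.408, 6.289 and 4.861 CPM in A and 125.2, 51.24 and 75.38 CPM in E at 0 hpf, a log2 fold change of -4.01 ± 0.259 (SE, adjusted p = 1.59e-09 in edgeR). At 3 dpf section A had 8.357, 7.276 and 11.35 CPM and section E 35.29, 32.56 and 61.94 CPM, a log2 fold change of -2.28. hdac1 LOC110522137, a class I copy, was higher in A at both stages, with log2 fold changes of 0.65 and 0.58.

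The DNA methylation enzymes did not share a pole. At 0 hpf dnmt1 LOC110538418 and dnmt3bb.1 were higher in A, dnmt3ba LOC110532515 and dnmt3ab LOC110497603 in E, and dnmt1 LOC110486372 and dnmt3bb.2 LOC110492303 did not pass. The share of these DNA methyltransferase members in each direction was thus near the 32.0% of all genes. dnmt3ba, a de novo methyltransferase, read 151.6, 156.8 and 118.6 CPM in A and 725.3, 562.7 and 585.4 CPM in E, a log2 fold change of -2.12 ± 0.139 (SE, adjusted p = 1.84e-09 in edgeR), and it was higher in E at all 4 stages. tet3 LOC110525859, the 1 TET member, read 26.98, 27.98 and 22.19 CPM in A and 41.83, 28.77 and 42.15 CPM in E at 0 hpf, a log2 fold change of -0.54 ± 0.143 (SE, adjusted p = 0.0034 in edgeR). The tet3 call at 0 hpf was lost without replicate 3 (adjusted p = 0.162 in edgeR) and without a scaling factor (0.0572), that of dnmt3bb.1 without replicate 1 or 3 (0.198 and 0.236), without the block (0.128) and in DESeq2 (0.0967), and that of dnmt3ab without the block (0.6) or a scaling factor (0.0567).

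Between the egg and 3 dpf both dnmt1 copies and tet3 fell in section A, while dnmt3bb.2 and dnmt3ba rose there. dnmt1 LOC110538418 had 407.1, 335.9 and 422.1 CPM in A at 0 hpf and 175.0, 146.0 and 137.9 CPM at 3 dpf, a log2 change of -1.41 ± 0.129 (SE, adjusted p = 6.91e-06 in edgeR). Its copy dnmt1 LOC110486372 went from 539.4, 432.9 and 534.2 CPM to 266.7, 198.3 and 248.6 CPM, a log2 change of -1.14 ± 0.156. tet3 went from 26.98, 27.98 and 22.19 CPM to 10.89, 9.095 and 9.636 CPM, and no replicate overlapped in any of these 3 genes. dnmt3bb.2 LOC110492303 did the reverse, with 638.4, 646.3 and 624.5 CPM in A at 0 hpf and 1243, 1203 and 1247 CPM at 3 dpf, a log2 change of 0.89 ± 0.08 (SE, adjusted p = 6.07e-06 in edgeR). dnmt3ba rose by 0.71 ± 0.199 in A, a call that was lost without a scaling factor (adjusted p = 0.115 in edgeR). dnmt3ab LOC110497603 rose from 11.07, 11.33 and 10.44 CPM at 1 dpf to 44.32, 55.02 and 42.82 CPM at 3 dpf (log2 change 2.04 ± 0.413, adjusted p = 0.00184 in edgeR). Against 0 hpf its change of 0.95 did not pass (adjusted p = 0.0618 in edgeR), where replicate 2 of the egg had 43.59 CPM and the other 2 had 15.59 and 12.28 CPM.

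In section E dnmt1 LOC110538418 averaged 272.6 CPM at 0 hpf and 321.1 CPM at 3 dpf, and tet3 37.58 and 55.14 CPM. At 3 dpf both dnmt1 copies were higher in E, with log2 fold changes of -1.14 ± 0.171 for dnmt1 LOC110486372 and -1.04 ± 0.155 for dnmt1 LOC110538418. tet3 had 9.873 ± 0.921 CPM in A and 55.14 ± 4.967 CPM in E (SD, n = 3), and dnmt3bb.2 LOC110492303 had 1231 ± 24.01 and 611.2 ± 39.74 CPM. The summed levels over all 5 sections did not pass for any DNA methyltransferase, for tet3 or for ezh2 between 0 hpf and 3 dpf, with log2 changes of -0.71 to 0.32. Raw counts were summed, so each section weighed in by its sequencing depth, and a sum is not a whole-egg or whole-embryo level. dnmt3bb.1 and dnmt3bb.2 are neighbouring genes in the USDA_OmykA_1.1 annotation, and the strand setting of the read counting is not given in the sources used here.

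**Figure D3:**
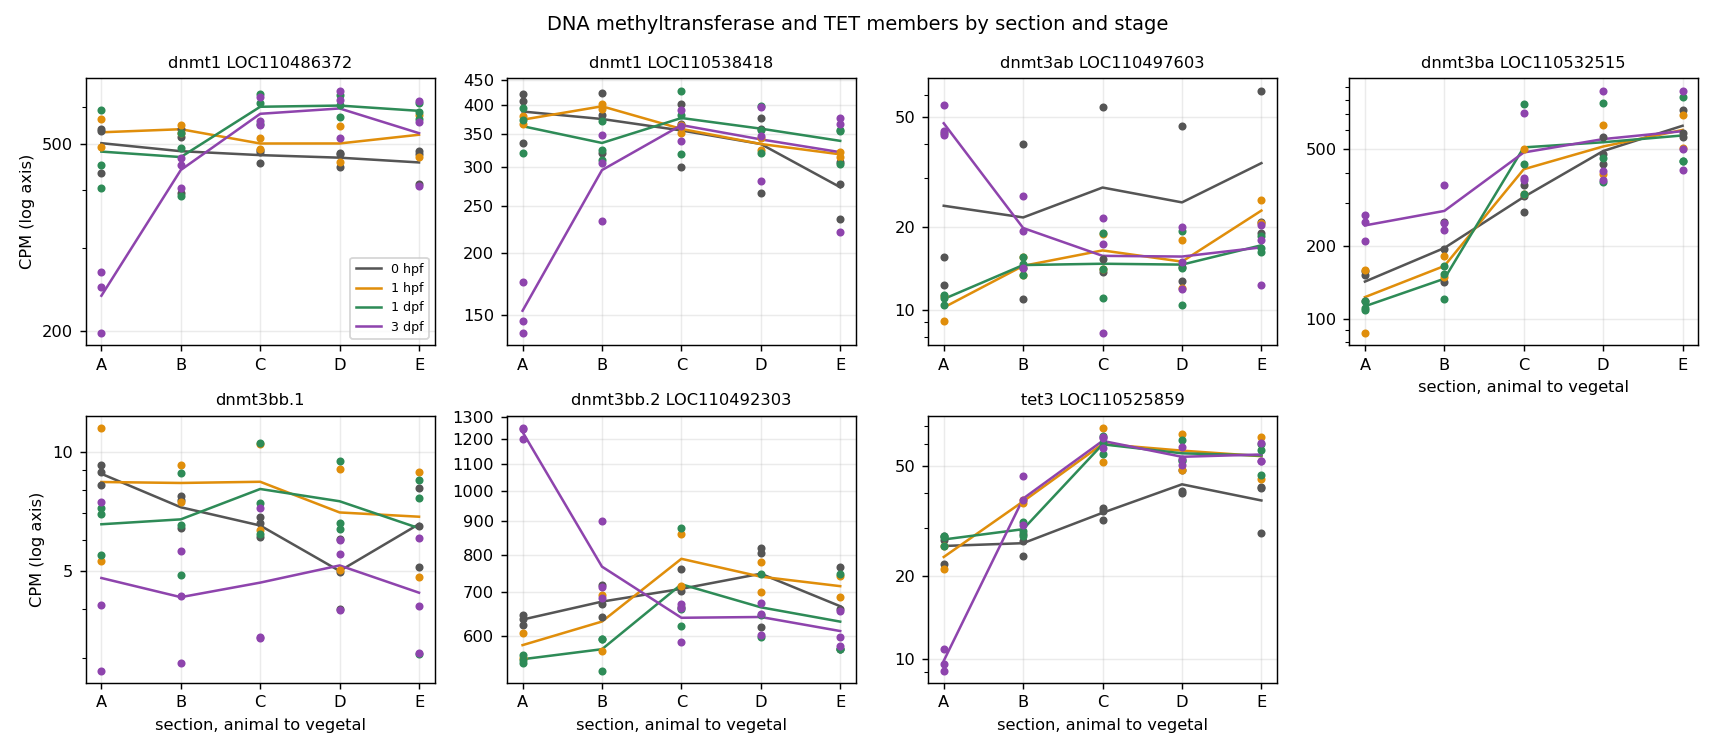
CPM (log axis) of the 6 DNA methyltransferase members and tet3 by section, animal to vegetal, at 4 stages; points are replicates and lines join means. At 3 dpf (purple) both dnmt1 copies and tet3 are lowest in section A, and dnmt3ab and dnmt3bb.2 are highest there.

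The difference between the poles itself changed between 0 hpf and 3 dpf for 60 members, 37 toward A and 23 toward E, beside 25.3% and 23.8% of all 23458 genes. These were tests of the stage by section term over all 55 libraries. Under library sizes without a scaling factor the split was 26 toward A and 27 toward E. The median change of all genes was then -0.25, against 0.02 in the reported fit. Of the calls made there, 49.1% for the members and 38.6% for all genes were toward A (61.7% and 51.5% in the reported fit). Against 1 dpf the split was 39 and 20 (22.8% and 21.2% of all genes), and 23 and 27 without a scaling factor. The median of all genes was then -0.36, against 0.04 in the reported fit. Of the calls made there, 46.0% for the members and 30.9% for all genes were toward A (66.1% and 51.8% in the reported fit). Both comparisons share the 3 dpf libraries. Without replicate 3 of 3 dpf, the counts toward A and E against 0 hpf were 29 and 26. The median change of the members was then -0.06, against 0.44 in the reported fit, and that of all genes was -0.04.

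The members that moved furthest toward the animal pole were kmt5aa, setd4, setd6, hdac1 LOC110498019, kdm5ba LOC110528247 and kat2a LOC110538187. kmt5aa LOC110537078, which encodes the H4K20 monomethyltransferase, averaged 1.668 CPM in A and 1.967 CPM in E at 0 hpf. At 3 dpf it read 111.4, 97.77 and 54.82 CPM in A and 5.735, 5.514 and 2.031 CPM in E, and the change of A over E was 4.91 ± 0.846 (log2, SE, adjusted p = 7.44e-06 in edgeR). Its highest section at 3 dpf was B, with 363.1, 326.5 and 28.61 CPM in replicates 1 to 3, and replicate 3 stood far below the other 2. hdac1 LOC110498019, a class I deacetylase copy, averaged 15.53 CPM in A and 16.81 CPM in E at 0 hpf and 181.0 ± 28.77 and 29.29 ± 2.761 CPM at 3 dpf (SD, n = 3), a change of 2.77 ± 0.253. setd4 changed by 3.20 ± 0.538 and setd6 by 2.79 ± 0.262. kat2a LOC110538187, the catalytic subunit of the SAGA acetyltransferase complex, read 28.81, 25.16 and 27.63 CPM in A at 0 hpf and 122.8, 112.3 and 114.1 CPM at 3 dpf, while section E averaged 45.47 and 40.6 CPM. It passed toward E at 0 hpf and toward A at 3 dpf, and its change of 2.29 ± 0.204 had an adjusted p of 1.37e-11 in edgeR.

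The opposite change was led by a class IIa deacetylase. hdac7a LOC110528499 had a mean in A of 94.37 CPM in the egg, then 85.95 (1 hpf), 73.12 (1 dpf) and 10.18 CPM (3 dpf). In single replicates section A went from 88.91, 101.1 and 93.12 CPM at 0 hpf to 10.13, 8.64 and 11.78 CPM at 3 dpf, a log2 change of -3.25 ± 0.179 (SE, adjusted p = 3.98e-07 in edgeR). Section E averaged 54.87 and 37.2 CPM, so A over E turned from 0.81 to -1.82. hdac4 LOC110528724, of the same class, turned from 1.25 to -0.89, a change of -2.09 ± 0.398, and its call toward E at 3 dpf was lost without replicate 1 or 2 (adjusted p = 0.0584 and 0.112 in edgeR). kdm4aa LOC110523012, an H3K9 demethylase, changed by -2.28 ± 0.494, tet3 by -1.90 ± 0.216, dnmt1 LOC110538418 by -1.55 ± 0.168 and kmt2ca LOC110490933 by -1.50 ± 0.52. The kmt2ca call was lost without 0 hpf replicate 3 (adjusted p = 0.0521 in edgeR) and without 3 dpf replicate 1, where its change was -0.93.

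In all, 8 of the 113 members were called toward opposite poles at different stages, beside 7.60% of all genes tested at every stage. Of these, 4 went from a call toward A to a call toward E by 3 dpf (dnmt1 LOC110538418, hdac4 LOC110497004, hdac4 LOC110528724 and hdac7a LOC110528499). hdac4 LOC110497004 was called toward A at 1 hpf and 1 dpf but not at 0 hpf. The other 4 went the other way (dnmt3ab LOC110497603, kat2a LOC110538187, kat7b LOC110491542 and setd6). The call of setd6 toward E at 0 hpf was lost without replicate 3 (adjusted p = 0.0852 in edgeR) and without the block (0.0594).

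**Figure D4:**
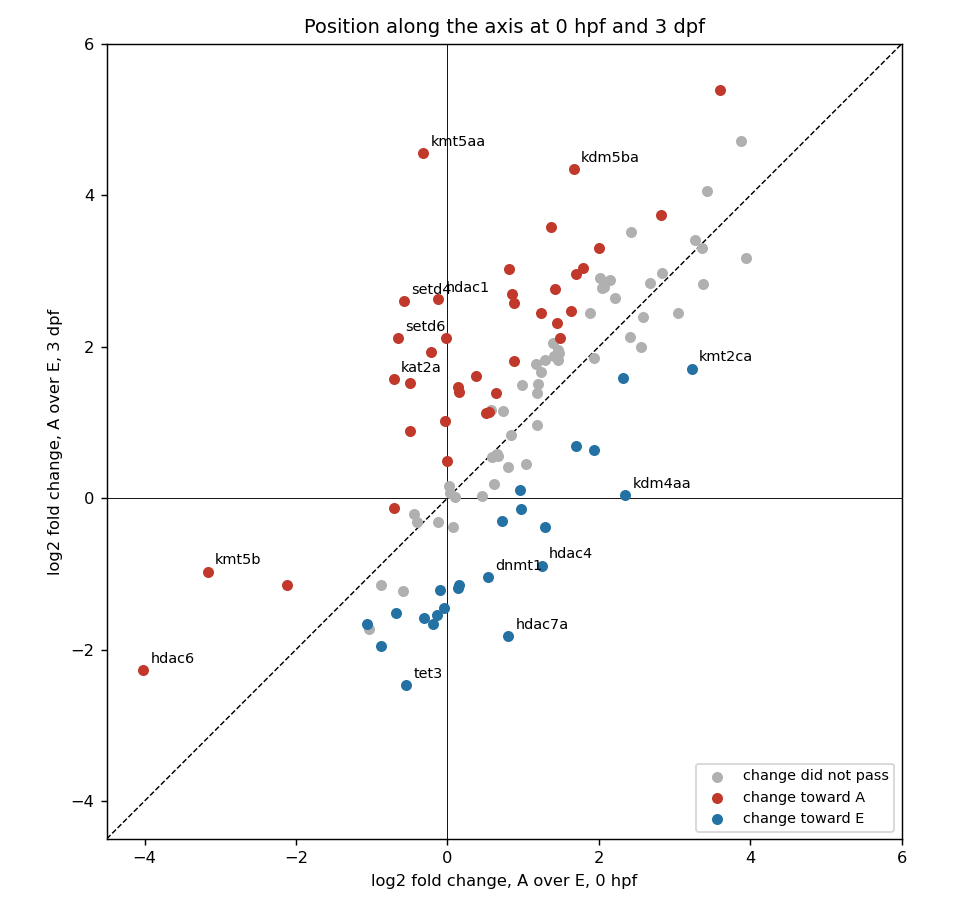
Log2 fold change of section A over E at 0 hpf (horizontal) against 3 dpf (vertical) for the 113 members, coloured by whether the change between the stages passed toward A, toward E or not; the dashed line marks no change. kmt5aa, setd4, setd6, hdac1, kdm5ba and kat2a lie above the line, and hdac7a, kdm4aa, hdac4, tet3 and dnmt1 below it.

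Stages were also compared within section A alone. From 1 dpf to 3 dpf 36 members rose and 27 fell there, beside 25.5% and 23.9% of all genes, and from 0 hpf to 3 dpf 31 rose and 28 fell, beside 28.2% and 27.5%. Without a scaling factor the counts were 29 and 31, and 22 and 40. The median of all genes was then -0.39 and -0.36, against -0.07 and -0.08 in the reported fits. Of the calls made without a factor, rises made up 48.3% and 35.5% for the members and 36.4% and 38.8% for all genes. The genes first transcribed by the embryo rose in the same libraries, as given above, and the summed level of 11 oocyte genes in section A was 988 to 1130 CPM from 0 hpf to 1 dpf and 450 to 555 CPM at 3 dpf. Their part in the members' changes was not tested. setd6 averaged 9.41 CPM at 0 hpf and 84.32 CPM at 3 dpf, a log2 change of 3.08 ± 0.241, and kmt5b averaged 18.1 and 106.9 CPM, a change of 2.50 ± 0.225. kat2a LOC110486259 rose by 2.21 ± 0.22. Among the genes that fell, kdm6bb LOC110509928 went from 34.19, 61.81 and 47.14 CPM to 6.585, 8.185 and 10.49 CPM, and kdm7ab changed by -1.80 ± 0.216.

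Summed over the 5 sections, more members fell than rose from the egg to 3 dpf: 37 fell and 15 rose, beside 16.2% and 19.9% of all 23460 genes tested. The median log2 change was -0.36 for the members. By step their median was -0.42 from 0 hpf to 1 hpf, 0.08 from 1 hpf to 1 dpf and -0.07 from 1 dpf to 3 dpf. Most of the median fall thus lay between 0 hpf and 1 hpf. That step rests on 2 replicates of 1 hpf that differed, its member median being -0.27 without 1 hpf replicate 1 and -0.6 without 1 hpf replicate 3. A difference between the 0 hpf samples and the later ones other than time was not tested. The H3K4 methyltransferases fell in 7 of 19 members and rose in none, and all 4 H3K36 demethylases had negative changes, 3 of which passed. kmt2ca LOC110490933 went from 52.85, 50.04 and 70.64 CPM to 14.2, 11.29 and 14.79 CPM, a log2 change of -2.11 ± 0.333 (SE, adjusted p = 0.00138 in edgeR). hdac7a LOC110528499 went from 89.09, 81.87 and 84.91 CPM to 35.63, 32.93 and 28.37 CPM (-1.40 ± 0.121, adjusted p = 0.000113 in edgeR). The lack of overlap between stages was part of the rule that picked both genes. kdm6bb LOC110509928 fell by 1.57, kmt2ba LOC110487656 by 1.46, kmt2a LOC110503544 by 1.39 and kdm4aa LOC110523012 by 1.29 on the log2 scale. Among the p300 and CBP genes ep300b LOC110486410, crebbpb LOC110485268 and both ep300a copies fell, and ep300b LOC110538375 and crebbpa LOC110487234 did not pass. Each of those 4 calls was lost without 0 hpf replicate 1, 0 hpf replicate 3, 3 dpf replicate 2 or 3 dpf replicate 3, with adjusted p in edgeR between 0.0563 and 0.141, and that of ep300a LOC110502858 also with a replicate block (0.0525). The kmt2a call was lost without 0 hpf replicate 3 (adjusted p = 0.0714 in edgeR) and without 3 dpf replicate 2 (0.0642), and the count of fallers was 22 without 0 hpf replicate 3, 23 without 0 hpf replicate 1 and 24 without 3 dpf replicate 2.

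The rise was led by kmt5aa LOC110537078, which went from 2.693, 1.305 and 2.466 CPM to 146.0, 91.6 and 20.78 CPM, a log2 change of 5.28 ± 0.763 (SE, adjusted p = 0.000902 in edgeR). All 3 summed replicates of 3 dpf exceeded the egg, with replicate 3 the lowest of them. Without 3 dpf replicate 1 the kmt5aa change was 4.68, and with sections weighted equally it was 4.29. hdac1 LOC110498019 went from 19.49, 9.702 and 20.68 CPM to 81.95, 54.34 and 66.52 CPM, a log2 change of 2.02 ± 0.261. hdac4, at 1.92, 3.064 and 1.535 CPM in the egg, reached 5.789, 8.072 and 5.345 CPM. kdm5ba LOC110528247 rose by 1.55, setd6 by 1.52 and kmt5b by 1.16 on the log2 scale.

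Steps between neighbouring stages gave fewer calls. From 0 hpf to 1 hpf 1 member rose and 1 fell, beside 2.21% and 1.27% of all genes: kmt5ab had 164.1, 164.4 and 157.6 CPM at 0 hpf and 231.9 and 210.8 CPM at 1 hpf (adjusted p = 0.0254 in edgeR), and kdm6a LOC110528830 had 115.0, 98.72 and 117.5 CPM and then 41.72 and 64.73 CPM (adjusted p = 0.0361 in edgeR). Both calls were lost without replicate 1 or 3 of 0 hpf or replicate 1 of 1 hpf. In that step 51 members had an unadjusted p under 0.05 in edgeR, a threshold for which no share of all genes is given. DESeq2 called 5 members up and 25 down, beside 1464 up and 1468 down among all genes. From 1 hpf to 1 dpf edgeR called 0 of the 113 members and 0 of all genes (0.0%). There 1 member had an unadjusted p under 0.05, and DESeq2 also called 0 members, beside 10 up and 1 down among all genes. From 1 dpf to 3 dpf 8 members rose and 9 fell, beside 8.06% and 3.15% of all genes. kmt5aa LOC110537078 rose by 3.82 ± 0.707 (log2, SE), kdm5ba LOC110528247 by 1.72 and setd6 by 1.24, and hdac4 LOC110528724 fell by 1.14 and kdm4aa LOC110523012 by 1.09. The kmt5aa rise was 3.21 without 3 dpf replicate 1 and 3.2 with sections weighted equally. The kdm4aa call was lost without 1 dpf replicate 1 or without any 1 of the 3 dpf replicates (adjusted p of 0.0593 to 0.0868 in edgeR).

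**Figure D5:**
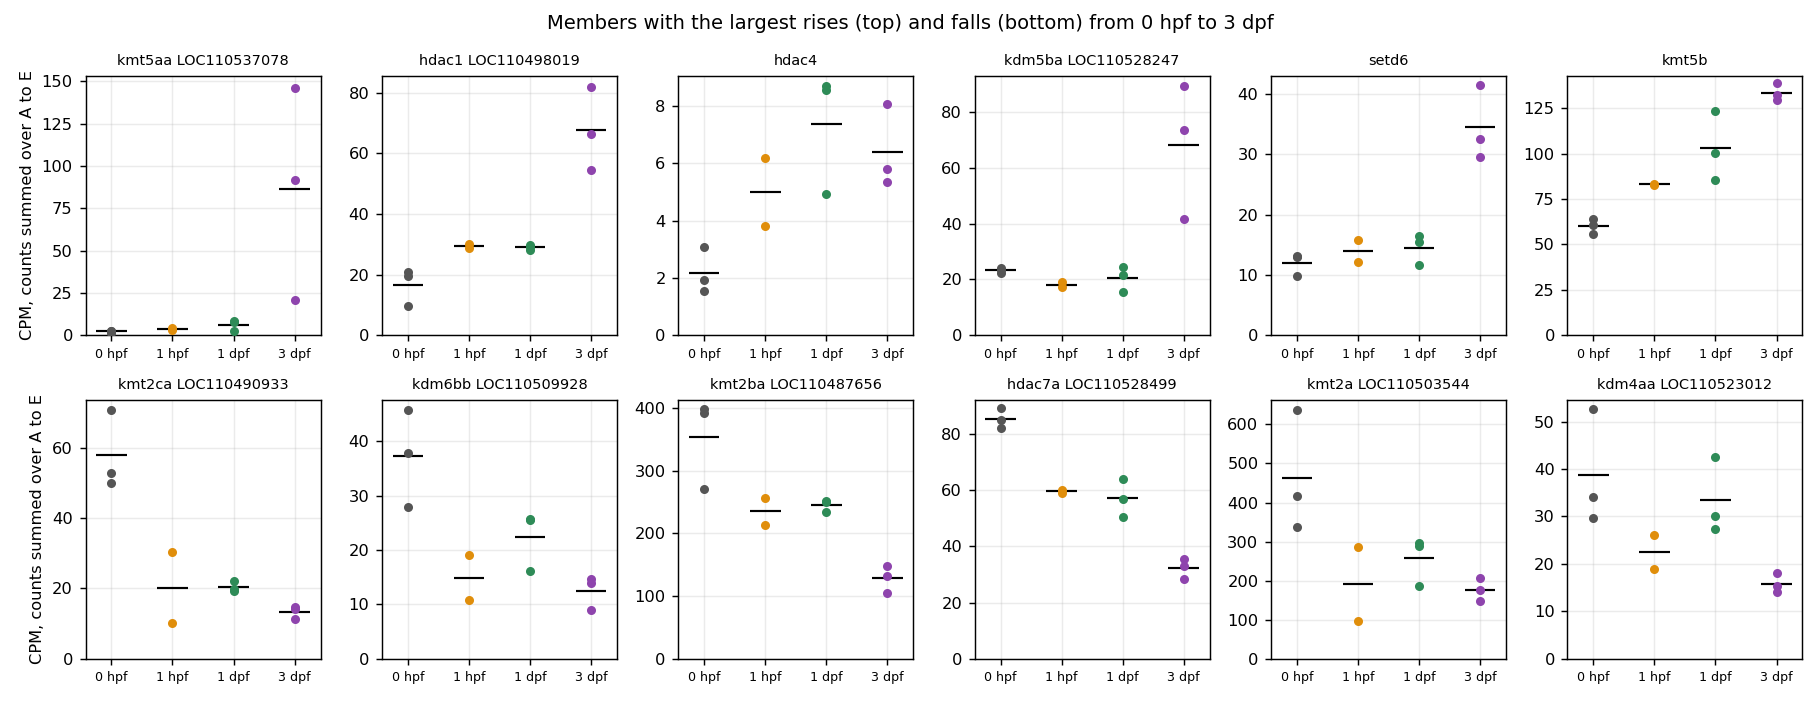
CPM of counts summed over sections A to E at each stage for the 6 members with the highest rises (top) and the 6 with the deepest falls (bottom) from 0 hpf to 3 dpf; points are replicates and bars are means. kmt5aa LOC110537078 is under 10 CPM until 1 dpf and 20.78 to 146.0 CPM at 3 dpf, while kmt2ca LOC110490933 is lower from 1 hpf on.

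Opposite calls of A over E within a symbol were few at 0 hpf and 3 dpf. The spread of A over E between copies had a median of 0.395 (log2) over the 38 symbols at 0 hpf and 0.615 at 3 dpf, beside 0.583 and 0.989 over the other named symbols with 2 to 4 copies tested (1599 and 1675 symbols). Opposite calls were made within 2 symbols at 0 hpf (kmt5b and hdac4) and 2 at 3 dpf (kat7b and hdac5), which is 5.26% of the 38 at each stage, beside 12.3% and 13.2% of those other symbols. For the change of A over E the share was 7.89% against 0 hpf (8.87% of other symbols) and 7.89% against 1 dpf (6.91%). For summed sections from 0 hpf to 3 dpf it was 7.89% (4.53%), and for section A from 1 dpf to 3 dpf 10.5% (7.88%). No test of these differences was made. hdac4 had 1.183, 2.386 and 1.087 CPM in A and 3.913, 3.82 and 1.857 CPM in E at 0 hpf, a log2 fold change of -1.03 that did not pass without replicate 1 (adjusted p = 0.14 in edgeR) or without the block (0.0697), whereas hdac4 LOC110528724 had 1.25. hdac5 had a log2 fold change of -1.22 at 3 dpf and hdac5 LOC110538386 1.47. The 2 kdm6bb copies changed in opposite directions from 0 hpf to 3 dpf, A over E moving by -1.66 for kdm6bb LOC110509928 (-2.35 without 3 dpf replicate 3) and by 2.23 for the other (2.82 without 3 dpf replicate 1, and not passing without the block, adjusted p = 0.131 in edgeR). Over summed sections the 2 kdm5ba copies also parted, with -0.78 for kdm5ba LOC110494185 and 1.55 for kdm5ba LOC110528247. Reads of near-identical copies may have been divided between them or left out in the counting, so values of single copies are less certain than those of single genes.

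Genes that work with these enzymes were counted beside the same background, 32.0% of all genes in each direction at 0 hpf and 38.1% toward A and 34.3% toward E at 3 dpf. Of 19 COMPASS partner genes, the subunits of H3K4 methyltransferase complexes, 9 were higher in A and 3 in E at 0 hpf, and 12 and 3 at 3 dpf. Of 30 Polycomb partner genes 8 and 6 were called at 0 hpf, both under the background, and 14 and 12 at 3 dpf. Of the partners and readers of DNA methylation 5 of 21 were higher in A and 6 in E at 0 hpf, and 7 and 8 of 23 at 3 dpf, near or under the background. Of the corepressor genes that work with deacetylases 15 of 30 were higher in A and 5 in E at 0 hpf, and 19 and 5 of 31 at 3 dpf. Of 41 acetyl-lysine readers and partners 13 and 8 were called at 0 hpf, the first near the background, and 21 and 11 at 3 dpf. Of other histone methyltransferase genes outside the 113, 23 of 49 were higher in A and 10 in E at 0 hpf, and 38 and 7 of 50 at 3 dpf. No test of the difference between these lists and the 113 members was made.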

How the data were processed

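RNA was extracted with TRI Reagent and LiCl precipitation, depleted of ribosomal RNA and made into directional libraries from 30 ng of total RNA, per the labels' protocols. The submitters' processing notes name fastp 0.23.4, STAR 2.7.11, HTSeq 2.0.4 and DESeq2. For the genome build and strand setting, the value is not given in the sources used. The authors deposited raw read counts per gene, and those counts of 55 libraries were used as deposited. The deposited ortholog table gave the zebrafish symbols, and all 113 members were found in the RefSeq table of USDA_OmykA_1.1. Where 2 members share a zebrafish symbol the trout identifiers tell them apart.

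Tests were edgeR 4.0.16 quasi-likelihood fits in R 4.3.3 with trimmed mean of M-values scaling, genes of too low count removed (filterByExpr, minimum count 10), and Benjamini-Hochberg adjustment over all genes tested, with a threshold of 0.05. Sections were compared within a stage with replicate as a block. Stage fits, without a block, used the sum of a replicate's 5 sections (11 sums) or section A (11 libraries), and the change of A over E over 55 libraries with stage by section and replicate terms. Sums were of raw counts, so sections weigh by their sequencing depth. SE is the absolute log2 fold change divided by the square root of F. The same step was tested on simulated data, where it missed most of the smaller changes between stage sums and made somewhat more false calls between sections than the threshold allows. Alternatives were other size factors, library sizes without a factor, no filter, DESeq2 1.42.0, the other block setting, equally weighted sections (limma 3.58.1) and leaving out each replicate. Depth was 1.09 to 14.46 M counts (mega-counts) per library, and no member was at 3 counts or fewer summed over the replicates of any stage and section.

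Replicate numbers of 1 dpf and 3 dpf were not clear pairs. Same-numbered sums deviated together with r of 0.53, 0.39 and 0.6. Different-numbered ones had -0.56 to 0.47, the highest being 1 dpf replicate 2 with 3 dpf replicate 1. Replicate 1 of 1 hpf had r of 0.6 and 0.63 with 1 dpf replicates 1 and 2, and replicate 3 had 0.69 with 1 dpf replicate 3. Sums of 0 hpf had r of -0.07 to 0.09 with those of other stages. Whether replicates came from separate spawnings is not stated, so a p-value reflects variation among these samples alone, some of which may be technical. Genes named are, per comparison and direction, the 6 with the largest change that passed with the same direction in every replicate, every dnmt, tet, ezh, ep300 and crebbp member, the 2 with the highest mean CPM per class, and copies with opposite calls. For sections that direction was A above or below E in each replicate, and for stages it was no overlap between the groups. In genes picked this way, such a separation was set by the choice. Other members named were chosen after their values were seen. The members and lists were chosen with earlier results of these data known.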

Additional observations from a re-analysis of the deposited data

Results flagged for a closer look

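By a test of the stage by section term in edgeR, the difference between the poles changed for 60 members against 0 hpf. Of these 37 went toward A and 23 toward E, beside 25.3% and 23.8% of all genes. Against 1 dpf 59 members changed, 39 toward A and 20 toward E, beside 22.8% and 21.2%. Without a scaling factor the splits were 26 and 27 against 0 hpf, and 23 and 27 against 1 dpf. Of all genes called under that setting 38.6% and 30.9% were toward A, and of the members called 49.1% and 46.0%. The named members toward A against 0 hpf had log2 changes of 4.91 for kmt5aa LOC110537078, 3.2 for setd4, 2.79 for setd6, 2.77 for hdac1 LOC110498019, 2.68 for kdm5ba LOC110528247 and 2.29 for kat2a LOC110538187. Those toward E had -2.6 for hdac7a LOC110528499, -2.28 for kdm4aa LOC110523012, -2.09 for hdac4 LOC110528724, -1.9 for tet3 LOC110525859, -1.55 for dnmt1 LOC110538418 and -1.5 for kmt2ca LOC110490933.

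Against 1 dpf the changes toward A were 4.24 for kmt5aa LOC110537078, 2.74 for setd6, 2.72 for setd4, 2.68 for kmt5b, 2.6 for kat2a LOC110538187 and 2.57 for kdm6bb. Those toward E were -2.62 for hdac7a LOC110528499, -2.51 for hdac4 LOC110528724, -2.36 for hdac4 LOC110497004, -1.58 for kdm4aa LOC110523012, -1.45 for tet3 LOC110525859 and -1.4 for kdm7ab. The 2 comparisons share the 3 dpf libraries, so they are not independent of each other.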

How the results depend on the processing

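Of 273 alternative counts over 28 results, 239 stayed within 1.5 times the reported count. Without the replicate block, 11 members were higher in E at 0 hpf, 41 higher in A and 35 unevenly spread at 1 hpf, and 24 changed toward A against 0 hpf. Library sizes without a factor gave 12 higher in E at 1 dpf and 23 changing toward A against 1 dpf. DESeq2 gave 5 up and 25 down from 0 hpf to 1 hpf and 13 up from 1 dpf to 3 dpf, and equally weighted sections 9 down and 17 down in those steps. Among all genes DESeq2 gave 1464 up and 1468 down and then 2745 up, and equally weighted sections 544 and 1323 down. The replicate block, where 0 hpf and 1 hpf share only a number (same-number r of -0.03 to 0.05 between 0 hpf and other stages), gave 3 up and 7 down from 0 hpf to 1 hpf. In the other stage comparisons the block moved no count by over 1.5 times. The cause of these shifts was not tested.

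Leaving out 1 replicate at a time gave 41 to 62 members higher in A at 1 hpf and 48 to 70 unevenly spread there, 0 to 4 up and 0 to 20 down from 0 hpf to 1 hpf, 5 to 8 up and 4 to 6 down from 1 dpf to 3 dpf, 22 to 39 down from 0 hpf to 3 dpf, and 25 to 44 changing toward A against 1 dpf, the lowest without 3 dpf replicate 3. Fits that leave 1 hpf with a lone replicate assume it varies like the other samples. Among named genes 2 values reversed: the summed change of dnmt3ab LOC110497603 from 0 hpf to 3 dpf was 0.61 without 0 hpf replicate 2 (lowest -0.58, without 0 hpf replicate 3), and the change of A over E of kdm5c LOC110532487 was -0.75 without 3 dpf replicate 3 (highest 0.4, without 3 dpf replicate 2). Neither had passed in the reported fit. Depth limits low members most, such as hdac4 and kmt5aa LOC110537078, whose section means in the egg were at most 3.2 and 3.3 CPM.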
